A study of Mus musculus with 12 samples.

Results

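The nuclear lamina is the protein mesh under the inner nuclear membrane, and 9 of its genes were followed here through mouse embryonic stem (ES) cells and their differentiated derivatives. They encode the lamins (Lmna, Lmnb1, Lmnb2), the lamin B receptor (Lbr), the LEM domain proteins emerin and LAP2 (Emd, Tmpo), the SUN domain proteins (Sun1, Sun2) and the chromatin organiser SATB1 (Satb1). The genes were picked by symbol, as a functional group, out of 22878 gene symbols in the deposited tables. Where a symbol had several transcript models the longest one stood for it. All 9 were found, with 21 transcript models between them, and all 9 passed the filter for expression in each fit.

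Polyadenylated RNA was sequenced in 12 libraries from a study of SUV420H2, an enzyme that places the repressive mark H4K20me3, and its relation SUV420H1. The genotypes are SUV420H2 KO (here KO), SUV420H1_H2 DKO (here DKO) and WT, each with 2 ES libraries, 1 library at day 8 of differentiation and 1 at day 12. The labels give all of them as ES cells grown without feeders on gelatin in 1.5 µM of an inhibitor of the kinase GSK3; they name neither the alleles, the parental line, the number of clones nor the differentiation protocol, so a genotype may be 1 line here and genotype and line cannot be told apart. Nothing says whether the ES replicates are separate cultures, so the p-values measure the spread between these libraries, which may be technical.

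Lamins form filaments that line the nucleus, and B-type lamins are made in nearly all cells whereas A-type lamins are known to be low in ES cells and to accumulate as cells differentiate. LBR and lamin A/C are known from mouse tissues as tethers that hold heterochromatin at the nuclear rim, with LBR used more in early and lamin A/C more in later cells. SUN proteins span the inner nuclear membrane and join the lamina, through nesprins, to the cytoskeleton. Emerin and LAP2 bind both lamins and the small chromatin protein BAF, and SATB1 folds chromatin by binding AT-rich DNA.

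The libraries held 22538336 to 26675600 reads in genes. Suv420h2 reads checked the labels: its level was 8.55 and 7.76 scaled RPKM in KO ES cells and 10.5 and 6.72 in DKO ES cells, against 55.1 and 50.1 in WT ES cells. Scaled RPKM are reads per kilobase of transcript and per library size, scaled by TMM over the 12 libraries, and every level below is on this scale. Suv420h1 stood at 9.95 and 11.5 in the libraries labelled DKO, against 7.29 and 8.12 in WT ES libraries, so its transcript level gave no sign of the second knockout, and DKO below means the libraries so labelled. Pou5f1, the pluripotency factor OCT4, was at 991 to 1498 in the 6 ES libraries. At days 8 and 12 it was 776 and 302 in KO, 1321 and 697 in DKO and 84.4 and 41.5 in WT. ES replicates of 1 genotype differed by more than counting noise (chi-square per degree of freedom 15.2 in KO, 37.0 in DKO and 3.87 in WT).

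**Figure D1:**
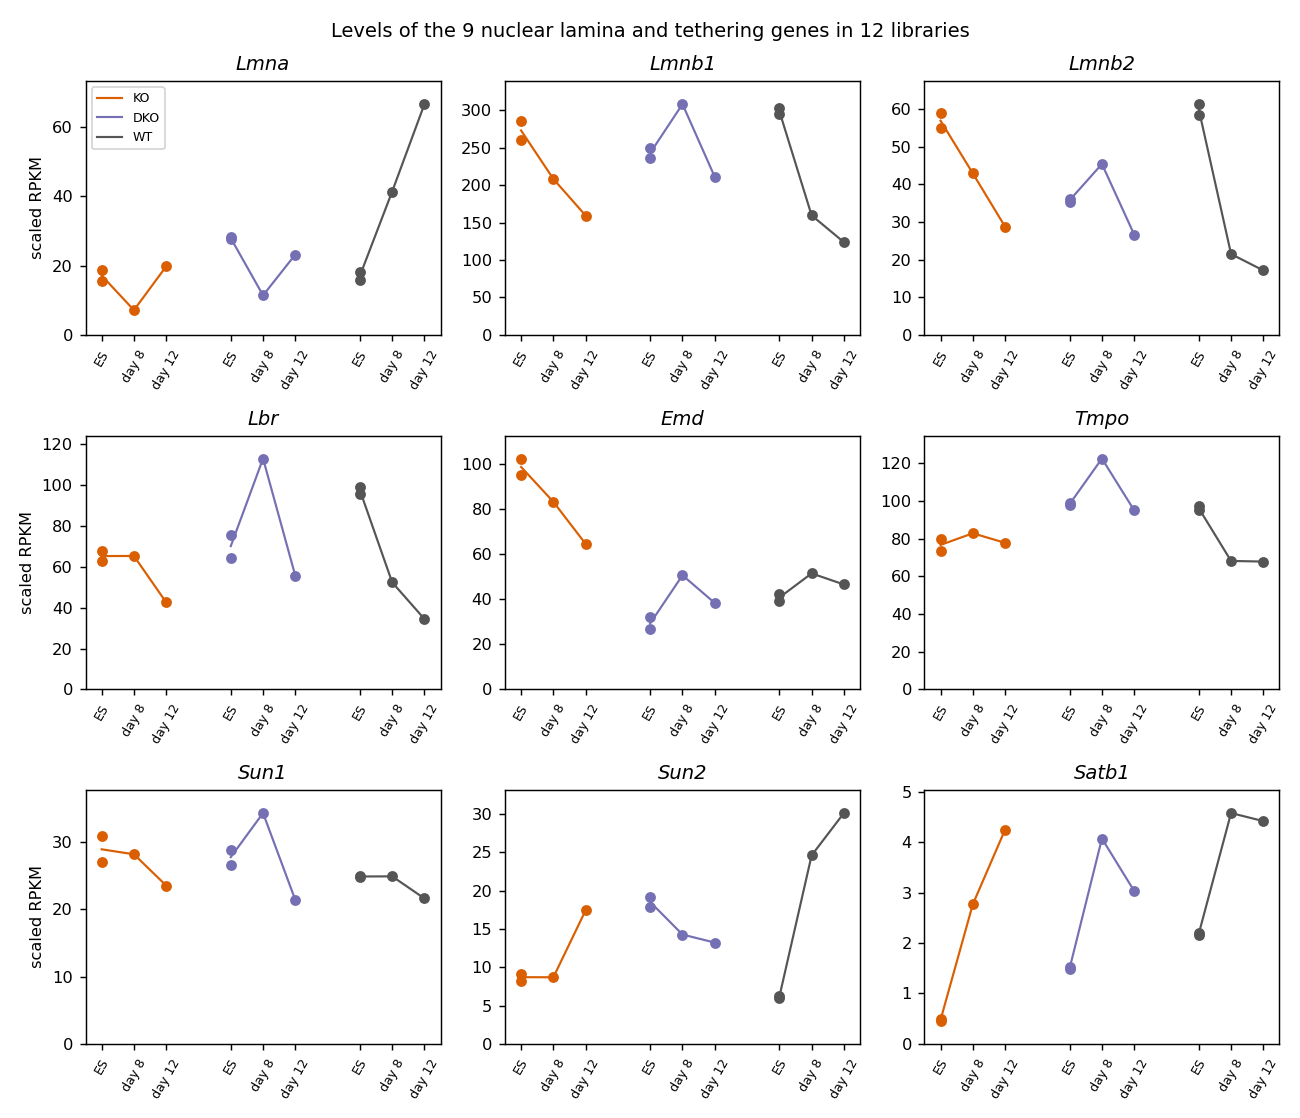
Level of the 9 lamina genes in each library (y axis, scaled RPKM, linear from 0, a panel for each gene) by genotype (KO, DKO, WT) and stage (ES, day 8, day 12), 1 point a library, with lines through the mean of the ES libraries. Lmna and Sun2 are highest in WT at days 8 and 12, Emd is highest in KO, and Satb1 is lowest in KO ES cells.

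In KO ES cells emerin and Sun2 transcripts rose relative to WT, and Satb1, Lbr and Tmpo fell, while no lamin passed the test. With edgeR's quasi-likelihood test, 5 of 9 lamina genes changed at an adjusted p (Benjamini-Hochberg over 12044 genes) under 0.05, 2 higher and 3 lower, where 42.7% of all genes tested changed, 23.5% higher and 19.2% lower. The median log2 change was -0.045 over the 9 genes and -0.007 over all genes tested. In DKO ES cells 7 of 9 changed relative to the same WT libraries, 2 higher (Sun2, Lmna) and 5 lower (Lmnb1, Lmnb2, Lbr, Emd, Satb1), where 63.9% of all genes changed (32.2% higher, 31.7% lower), with medians of -0.289 and -0.007. Satb1, counted among the falls in both, passed the filter through the WT libraries alone. Its fall was thus built into its being tested, and it adds no support to either count. Changes of this kind were common in the whole transcriptome, and both comparisons share their WT libraries. In bulk RNA, fewer cells of a type and less RNA per cell cannot be told apart.

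**Figure D2:**
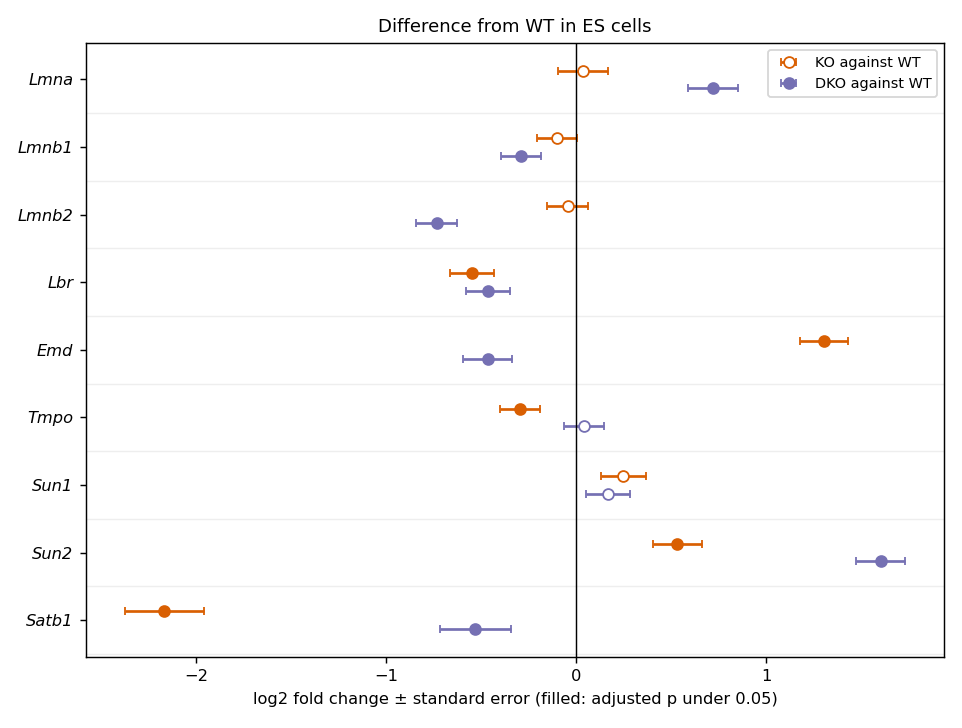
Log2 fold change of each lamina gene in KO (orange) and DKO (purple) against WT ES cells, with its standard error (2 libraries a genotype); filled points have an adjusted p under 0.05. Emd is at 1.31 in KO and -0.47 in DKO, and Sun2 is at 0.53 in KO and 1.60 in DKO.

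The lamins came first in abundance through Lmnb1. Lmnb1, the main B-type lamin of ES cells, was at 260 and 286 in KO ES cells and at 249.7 and 236 in DKO ES cells, against 295 and 303 in WT ES cells. All KO and DKO libraries lay below both WT libraries. The log2 change was -0.29 ± 0.11 (SE) in DKO (adjusted p = 0.0308) and -0.10 ± 0.11 in KO (adjusted p = 0.475). The DKO call did not hold without DKO replicate 2 (adjusted p = 0.0607), WT replicate 1 (0.173) or WT replicate 2 (0.224), nor with limma on log2(RPKM + 1) (0.0532) or log2(RPKM + 0.1) (0.0528), with all 12 libraries in 1 fit (0.0849) or with the replicate number as a block (0.0535).

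Lmnb2, the second B-type lamin gene, was at 54.9 and 59.0 in KO ES cells and at 35.5 and 36.2 in DKO ES cells, against 58.6 and 61.3 in WT ES cells. The DKO libraries lay well below the others, and the KO and WT ranges overlapped. Lmnb2 fell in DKO relative to WT by 0.73 on the log2 scale with an SE of 0.11 (adjusted p = 7.85e-05), and relative to KO by 0.69 with an SE of 0.11 (adjusted p = 0.000113). Against WT, KO cells had a log2 difference of -0.045 ± 0.107 (adjusted p = 0.766).

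Lmna, which encodes lamins A and C, was at 15.6 and 18.7 in KO ES cells and at 28.2 and 27.6 in DKO ES cells, against 18.3 and 15.9 in WT ES cells. Both DKO libraries were above all others, while KO and WT overlapped. Lmna rose in DKO relative to WT (log2 0.72 ± 0.13, adjusted p = 0.000418) and relative to KO (log2 0.69 ± 0.13, adjusted p = 0.000542), and was 0.036 ± 0.131 from WT in KO (adjusted p = 0.852). Among the 3 lamin transcripts per length, Lmna made up 4.72% and 5.14% in KO ES cells and 9.01% and 9.21% in DKO ES cells, against 4.91% and 4.17% in WT ES cells.

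Lbr, the receptor that binds B-type lamins and heterochromatin, was at 67.8 and 62.7 in KO ES cells and at 64.5 and 75.8 in DKO ES cells, against 99.2 and 95.8 in WT ES cells. Neither genotype overlapped WT, and KO and DKO overlapped each other. Lbr fell in KO by 0.55 log2 units (SE 0.12, adjusted p = 0.0023) and in DKO by 0.47 (SE 0.12, adjusted p = 0.00382). The DKO call was at an adjusted p of 0.0516 without WT replicate 1.

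Emd, the gene of emerin, was at 94.9 and 102 in KO ES cells and at 31.9 and 26.6 in DKO ES cells, against 39.2 and 42.3 in WT ES cells. The 3 genotypes did not overlap, and KO was the highest. Emd rose in KO by 1.31 ± 0.13 (log2, adjusted p = 8.03e-06), fell in DKO by 0.47 (SE 0.13, adjusted p = 0.00721), and was lower in DKO than in KO (log2 -1.77 ± 0.13, adjusted p = 2e-07), the largest change of a lamina gene between DKO and KO ES cells in size. Without WT replicate 2 the fall in DKO was at an adjusted p of 0.0833.

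Emd and Lbr lie on chromosomes whose genes moved as a body in KO. Emd is on chromosome X, where the median log2 change of 433 genes in KO against WT ES cells was 0.912, so that Emd was 0.393 above its chromosome and 71.4% of X genes had a lower value. Lbr is on chromosome 1, where the median of 647 genes was -0.571, and Lbr was 0.022 above it. In DKO against WT the medians were -0.086 on X and 0.121 on chromosome 1, and each gene was below the median of its own chromosome. In DKO against KO the X median was -0.932, and 23.8% of X genes were below Emd. Satb1 (chromosome 17, median 0.037) and Sun2 (chromosome 15, median 0.009) lie on chromosomes with medians near 0 in KO. The part of the chromosome shifts in the changes of Emd and Lbr was not tested.

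**Figure D3:**
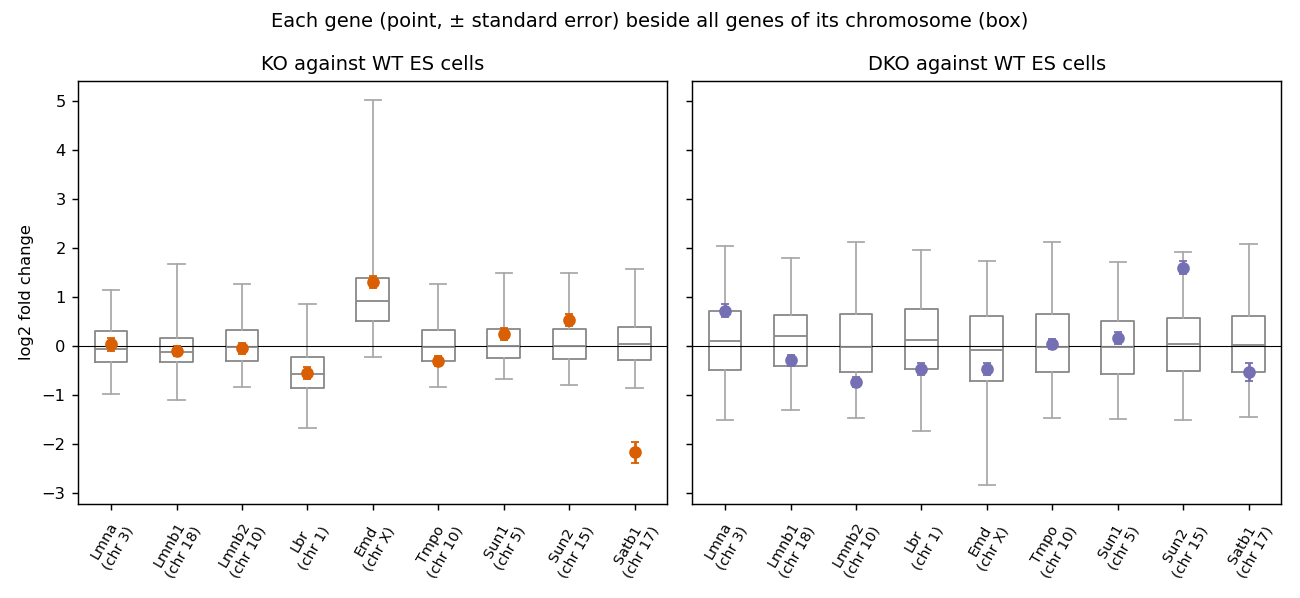
Log2 fold change of KO and of DKO against WT ES cells for each lamina gene (point, with its standard error), beside all genes tested on its chromosome (line at the median, box at the quartiles, whiskers at the 5% and 95% points). In KO, Lbr sits at the median of chromosome 1 (-0.571) and Emd above the median of chromosome X (0.912), whereas Satb1 is far under that of chromosome 17 (0.037).

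Tmpo, which encodes the LAP2 proteins, was at 73.4 and 79.8 in KO ES cells and at 98.0 and 98.6 in DKO ES cells, against 94.9 and 97.2 in WT ES cells. Only the KO libraries stood lower. Tmpo fell in KO by 0.30 log2 units (SE 0.11, adjusted p = 0.0369) and was higher in DKO than in KO (log2 0.34 ± 0.10, adjusted p = 0.0121). The first call was lost when any one of the KO or WT libraries was left out (adjusted p = 0.183 and 0.0718 without KO replicates 1 and 2, 0.219 and 0.273 without WT replicates 1 and 2) with the replicate number as a block (0.0658), and with all 12 libraries in 1 fit (0.152). The second was lost without KO replicate 1 (0.0922), WT replicate 1 (0.0505) or WT replicate 2 (0.0507), and with all 12 libraries (0.0618).

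The longest Tmpo model carries the coding sequence of LAP2 alpha, a form without a membrane span, whereas most reads fell on a model for the membrane-bound LAP2 beta. On that model the level was 89.8 and 97.3 in KO ES cells and 143 and 153 in DKO ES cells, against 126 and 125 in WT ES cells. The models share exons and each counts the shared reads, so the forms cannot be separated by these counts. For Lmna the longest model is that of lamin A, and it likewise shares most exons with lamin C.

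Sun2, a SUN protein of the bridge to the cytoskeleton, was at 8.25 and 9.18 in KO ES cells and at 19.2 and 17.9 in DKO ES cells, against 6.22 and 6.06 in WT ES cells. The genotypes did not overlap. Sun2 rose in KO by 0.53 ± 0.13 (log2, adjusted p = 0.00544) and in DKO by 1.60 ± 0.13 (adjusted p = 6.39e-07), and was higher in DKO than in KO (log2 1.07 ± 0.13, adjusted p = 1.21e-05). The KO call was at an adjusted p of 0.0507 without WT replicate 1, 0.0737 without WT replicate 2 and 0.174 with all 12 libraries in 1 fit.

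Sun1, its paralog, was at 30.8 and 27.0 in KO ES cells and at 28.9 and 26.7 in DKO ES cells, against 25.01 and 24.75 in WT ES cells, where both libraries lay below all others. It passed the test in none of the 12 comparisons made, with log2 changes between -0.375 and 0.247 and a smallest adjusted p of 0.112. In KO against WT it did pass when DKO replicate 1 (adjusted p = 0.0339) or DKO replicate 2 (0.036) was left out of the shared fit. The Sun1 level per length was 3.74 and 2.94 times that of Sun2 in KO ES cells and 1.51 and 1.49 times in DKO ES cells, against 4.02 and 4.09 times in WT ES cells.

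Satb1, the AT-rich DNA binder, had little RNA in ES cells. It was at 0.459 and 0.493 in KO ES cells and at 1.48 and 1.52 in DKO ES cells, against 2.20 and 2.17 in WT ES cells, which rests on 70 and 72 reads in KO, 208 and 234 in DKO and 333 and 336 in WT. It passed the filter through the WT libraries alone, so a fall from them was built into its being tested. Its p-values against WT ES cells are given as description and are no support for a fall. The genotypes did not overlap, with KO lowest. Satb1 fell in KO by 2.17 log2 units (SE 0.21, adjusted p = 6.51e-06) and in DKO by 0.53 (SE 0.19, adjusted p = 0.0262), and was higher in DKO than in KO (log2 1.64 ± 0.21, adjusted p = 2.09e-05). The fall in DKO was not called without DKO replicate 1 (adjusted p = 0.0653) or replicate 2 (0.0549), with all 12 libraries in 1 fit (0.129) or with limma on log2(RPKM + 0.1) (0.0692). Without either WT ES library Satb1 did not pass the filter, so none of its ES differences was tested then.

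In the direct comparison of DKO with KO ES cells, 6 of 9 lamina genes changed, 4 higher (Lmna, Tmpo, Sun2, Satb1) and 2 lower (Lmnb2, Emd), where 67.3% of all genes changed (33.3% higher, 34.1% lower). The median was 0.084 over the 9 genes and -0.02 over all genes.

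Sequence upstream of the start is shown for 4 genes whose ES levels differed between genotypes, chosen after their values were seen: Sun2, which rose most of the 9 in DKO, Emd, which rose most in KO, Lbr, which fell in both, and Lmnb2, which fell most of the 9 in DKO. Each is the 250 bases before the most upstream start given for the gene in a RefSeq promoter table on build GRCm38.p6, written along the gene's strand, at chr15:79742537-79742786 (minus strand) for Sun2, chrX:74254437-74254686 (plus strand) for Emd, chr1:181842402-181842651 (minus strand) for Lbr and chr10:80918246-80918495 (minus strand) for Lmnb2. No file measured binding there. Capitals mark CCAAT, or ATTGG on the other strand, and TTTGAA, or TTCAAA on the other strand, a hexamer known from promoters of cell-cycle genes.
Sun2: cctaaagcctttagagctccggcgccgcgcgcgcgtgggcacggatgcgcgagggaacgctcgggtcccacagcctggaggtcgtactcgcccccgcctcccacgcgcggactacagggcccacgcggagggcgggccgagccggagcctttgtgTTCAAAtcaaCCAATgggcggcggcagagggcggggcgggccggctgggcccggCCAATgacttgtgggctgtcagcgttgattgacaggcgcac
Emd: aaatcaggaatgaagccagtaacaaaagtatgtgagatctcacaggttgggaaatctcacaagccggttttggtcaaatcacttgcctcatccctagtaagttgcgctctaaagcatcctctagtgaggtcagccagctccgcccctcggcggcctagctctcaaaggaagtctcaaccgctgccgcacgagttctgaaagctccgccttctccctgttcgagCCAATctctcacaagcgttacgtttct
Lbr: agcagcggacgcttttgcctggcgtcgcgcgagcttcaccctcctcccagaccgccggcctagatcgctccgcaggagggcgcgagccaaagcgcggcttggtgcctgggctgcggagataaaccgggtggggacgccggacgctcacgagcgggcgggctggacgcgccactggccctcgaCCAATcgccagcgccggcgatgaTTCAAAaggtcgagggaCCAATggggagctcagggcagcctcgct
Lmnb2: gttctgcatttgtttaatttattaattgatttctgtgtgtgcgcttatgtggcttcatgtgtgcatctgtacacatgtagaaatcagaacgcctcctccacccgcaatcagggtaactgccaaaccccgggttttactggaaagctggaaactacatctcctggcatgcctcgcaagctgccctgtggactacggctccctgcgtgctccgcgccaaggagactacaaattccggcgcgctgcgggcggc

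Sun2 and Lbr each held 2 CCAAT matches and 1 TTTGAA match, Emd held 1 CCAAT match, and Lmnb2 held neither. A CCAAT match on either strand was present in 33.8% of the 32851 upstream windows of the same length in the table, and a TTTGAA match in 16.0%. The GC box letters GGGCGG, or CCGCCC on the other strand, were found 4 times in Sun2 and 1 time in each of the other windows, and in 32.7% of all windows. The letters TATAAA, on either strand, were in none of the 4 windows and in 12.4% of all. The Sun2 and Lbr windows, at 70.8% and 69.6% G and C, were richer in these bases than those of Emd (51.2%) and Lmnb2 (52.8%). These matches are descriptions of letters only.

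In differentiated WT cells the transcripts of Lmna, Sun2 and Satb1 rose and those of Lmnb1, Lmnb2, Lbr and Tmpo fell relative to WT ES cells, so that 7 of 9 genes changed (3 higher, 4 lower), where 61.1% of all 13429 genes tested did (31.2% higher, 29.8% lower). In KO, 3 of 9 changed between ES and differentiated cells, with Satb1 higher and Lmnb1 and Lmnb2 lower, where 29.3% of all genes did (15.8% higher, 13.5% lower). In DKO 3 of 9 changed, with Satb1 and Emd higher and Lmna lower, where 19.7% of all genes did (10.4% higher, 9.24% lower). The medians over the 9 genes were -0.288 in KO, 0.076 in DKO and -0.05 in WT, beside 0.017, 0.013 and 0.022 over all genes. Each genotype had 1 library a day, so days 8 and 12 stood as the replicates of the differentiated state, with a common effect of day removed.

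Lmna was at 7.16 at day 8 and 19.8 at day 12 in KO, at 11.4 and 23.2 in DKO, and at 41.4 and 66.6 in WT. Both WT differentiated libraries lay above every other library, and the day 8 libraries of KO and DKO lay below their own ES libraries. Lmna rose in WT by 1.68 ± 0.20 (log2, adjusted p = 0.000226) and fell in DKO by 0.77 (SE 0.20, adjusted p = 0.0281). In KO the log2 value was -0.49 (adjusted p = 0.0916), and it passed without KO day 12 (-0.81, adjusted p = 0.0383), WT day 12 (0.0337) or WT day 8 (0.0227). The change itself differed between genotypes. The KO change minus the WT change was -2.17 ± 0.28 (adjusted p = 0.00386), and the DKO change minus the WT change was -2.46 ± 0.28 (adjusted p = 0.000473). The WT rise and both differences of change held when any 1 of the 12 libraries was left out. The fall in DKO did not hold without any one of the 4 DKO libraries (adjusted p = 0.0814 without day 8, 0.099 without day 12, 0.0956 and 0.103 without ES replicates 1 and 2), nor with limma (0.0517 on log2(RPKM + 1), 0.0548 on log2(RPKM + 0.1)).

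**Figure D4:**
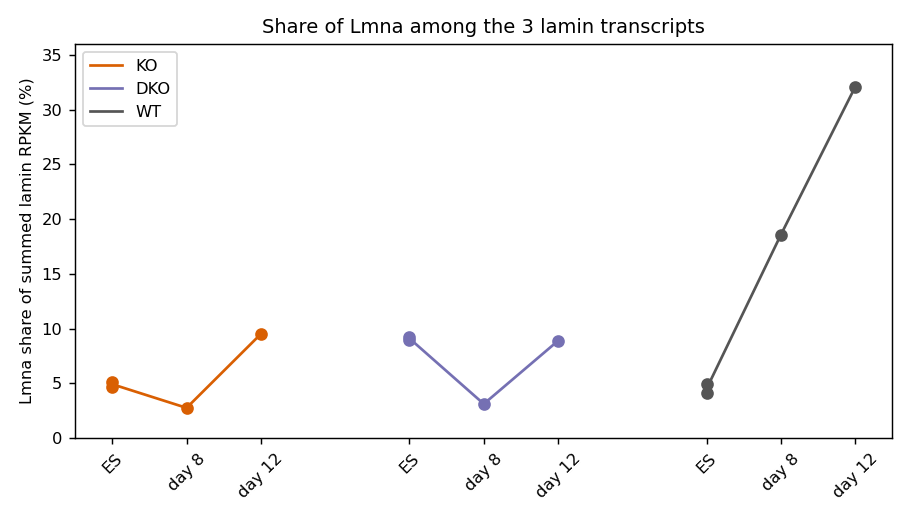
Share of Lmna in the summed scaled RPKM of Lmna, Lmnb1 and Lmnb2 (%), per library, by genotype and stage; points are single libraries and lines join stages through the mean of the ES libraries. In WT the share is 18.6% at day 8 and 32.1% at day 12, and in KO and DKO no library passes 9.52%.

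The share of Lmna among the lamin transcripts was 2.77% at day 8 and 9.52% at day 12 in KO and 3.13% and 8.9% in DKO, against 18.6% and 32.1% in WT. KO and DKO were below their ES shares at day 8. At day 12 the KO library was above its ES libraries and the DKO library just below its own. The ratio of the Lmna to the Lbr level was 0.23 and 0.298 in KO ES cells, 0.11 at day 8 and 0.465 at day 12. In DKO it was 0.437 and 0.365 in ES cells, 0.101 at day 8 and 0.417 at day 12. In WT it was 0.184 and 0.166 in ES cells, 0.79 at day 8 and 1.93 at day 12, the only library in which Lmna exceeded Lbr.

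Lmnb1 was at 208 at day 8 and 159 at day 12 in KO, at 308 and 211 in DKO, and at 159.6 and 124 in WT. In each genotype day 12 was below day 8, and DKO day 8 was the highest Lmnb1 level of the 12 libraries. Lmnb1 fell in WT by 1.04 (log2, SE 0.12, adjusted p = 0.000219) and in KO by 0.57 (SE 0.12, adjusted p = 0.0117). The KO call was lost without KO day 12 (adjusted p = 0.0646), KO ES replicate 1 (0.0513) or KO ES replicate 2 (0.0881). The DKO change minus the WT change was 1.12 ± 0.17 (adjusted p = 0.00171).

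Lmnb2 was at 42.9 at day 8 and 28.8 at day 12 in KO, at 45.4 and 26.7 in DKO, and at 21.5 and 17.1 in WT. WT was below the other genotypes at both days. Lmnb2 fell in WT by 1.59 (log2, SE 0.14, adjusted p = 5.73e-05) and in KO by 0.68 (SE 0.13, adjusted p = 0.00861), the second not without KO day 12 (adjusted p = 0.063) or KO ES replicate 2 (0.0665). The KO change minus the WT change was 0.91 ± 0.19 (adjusted p = 0.0174) and the DKO change minus the WT change 1.56 ± 0.19 (adjusted p = 0.000654). The KO difference was lost without KO day 8 (adjusted p = 0.0539) or any 1 KO or WT ES replicate (0.0646 to 0.112).

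Lbr was at 65.3 at day 8 and 42.6 at day 12 in KO, at 113 and 55.6 in DKO, and at 52.4 and 34.5 in WT. DKO day 8 was the highest Lbr level of all libraries. Lbr fell in WT by 1.15 (log2, SE 0.15, adjusted p = 0.000373). The KO change minus the WT change was 0.86 ± 0.21 (adjusted p = 0.0305) and the DKO change minus the WT change 1.34 ± 0.21 (adjusted p = 0.00198). The KO difference was past the threshold only with all libraries of KO and with WT day 8 and both WT ES libraries in the fit (adjusted p = 0.055 to 0.136 without one of them).

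Emd was at 83.1 at day 8 and 64.5 at day 12 in KO, at 50.6 and 38.3 in DKO, and at 51.4 and 46.5 in WT. KO stayed the highest at both days, and DKO and WT overlapped. The log2 difference of Emd in KO against WT differentiated cells was 0.583 (edgeR, adjusted p = 0.185). The median of 460 X genes there was 0.514, and 54.3% of them were below Emd. Emd rose within DKO (log2 0.59 ± 0.14, adjusted p = 0.0243). That call was lost without DKO day 8 (adjusted p = 0.146), DKO day 12 (0.0667), DKO ES replicate 2 (0.175), KO ES replicate 1 (0.0604), WT ES replicate 1 (0.0697) or WT ES replicate 2 (0.0698). The KO change minus the WT change was -0.73 ± 0.20 (adjusted p = 0.0433), and it passed only by a small margin: leaving out KO day 8 (0.0678), KO day 12 (0.106), a KO ES replicate (0.124 and 0.146), WT day 12 (0.063), a WT ES replicate (0.149 and 0.195), DKO day 8 (0.0533), DKO day 12 (0.0517) or DKO ES replicate 2 (0.057) took its adjusted p above 0.05. So did limma (0.0509 on log2(RPKM + 1), 0.0534 on log2(RPKM + 0.1)), no filter (0.0761) and the rows with most reads (0.0522). The median of the 497 X genes in this difference was -0.385, and 39.2% of them were below Emd.

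Tmpo was at 82.8 at day 8 and 77.7 at day 12 in KO, at 122 and 94.9 in DKO, and at 68.1 and 67.8 in WT. WT was the lowest at both days. Tmpo fell in WT by 0.45 (log2, SE 0.13, adjusted p = 0.0159), a call lost without WT day 8 (adjusted p = 0.123), WT ES replicate 1 (0.0704) or WT ES replicate 2 (0.0882). The DKO change minus the WT change was 0.59 ± 0.18 (adjusted p = 0.0311), and 0.40 (adjusted p = 0.108) on the LAP2 beta model with the most reads. On the longest model it was lost without DKO day 8 (0.117), a DKO ES replicate (0.0694 and 0.0752), KO ES replicate 1 (0.0549), WT day 8 (0.0964) or a WT ES replicate (0.1 and 0.117).

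Sun2 was at 8.7 at day 8 and 17.5 at day 12 in KO, at 14.3 and 13.2 in DKO, and at 24.6 and 30.2 in WT. WT was highest at both days, and both DKO days lay below the DKO ES libraries. Sun2 rose in WT by 2.20 ± 0.24 (log2, adjusted p = 0.000172). The log2 value in KO was 0.55 (adjusted p = 0.111), and 0.89 (adjusted p = 0.0147) without day 8. The KO change minus the WT change was -1.65 ± 0.34 (adjusted p = 0.0163), lost without any 1 KO or WT ES replicate (adjusted p = 0.0522 to 0.0746). The DKO change minus the WT change was -2.60 ± 0.34 (adjusted p = 0.000818). Sun1 was between 21.4 and 34.3 in the 6 differentiated libraries, and its level relative to Sun2 was 3.24 and 1.35 times at days 8 and 12 in KO and 2.4 and 1.62 times in DKO, against 1.01 and 0.717 times in WT.

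Satb1 was at 2.77 at day 8 and 4.25 at day 12 in KO, at 4.07 and 3.03 in DKO, and at 4.58 and 4.42 in WT. All 6 differentiated libraries were above all 6 ES libraries. Satb1 rose in KO by 2.90 ± 0.28 (log2, adjusted p = 0.000728), in DKO by 1.25 ± 0.26 (adjusted p = 0.0145) and in WT by 1.09 ± 0.26 (adjusted p = 0.00618). The KO change minus the WT change was 1.80 ± 0.37 (adjusted p = 0.0162), lost without any 1 KO or WT ES replicate (adjusted p = 0.0675 to 0.0697) and with limma on log2(RPKM + 1), where the low ES values are compressed (0.51, adjusted p = 0.208). The DKO rise was lost without DKO day 8 (adjusted p = 0.0713), DKO ES replicate 1 (0.0691) or replicate 2 (0.0887).

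**Figure D5:**
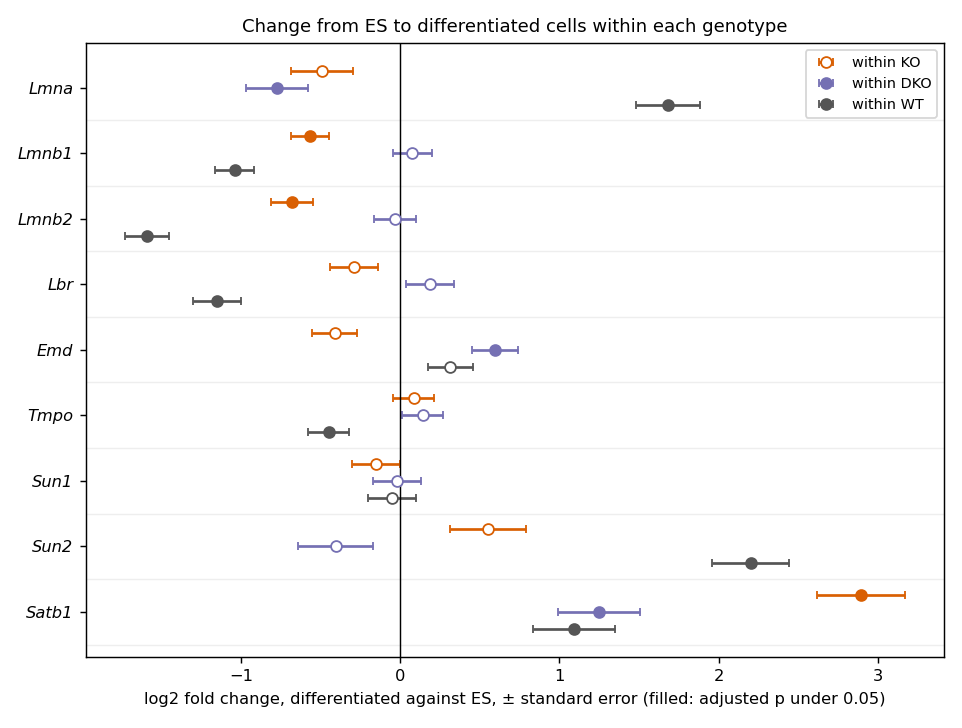
Log2 change from ES to differentiated cells of each lamina gene within KO, DKO and WT, with its standard error; filled points have an adjusted p under 0.05. Lmna is at 1.68 in WT and below 0 in KO and DKO, and Satb1 is above 0 in all 3 genotypes.

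Tests of the differences of change between genotypes passed for 6 of 9 lamina genes in KO minus WT (3 higher, 3 lower), where 16.3% of all genes passed (9.07% higher, 7.24% lower), and for 6 of 9 in DKO minus WT (4 higher, 2 lower), where 42% did (21.1% higher, 20.8% lower). The medians were 0.474 and 0.279 over the 9 genes, beside 0.027 and -0.024 over all genes. Both use the WT libraries. Of the 6 KO minus WT differences, only that of Lmna held in every fit with 1 library left out. Of the 6 DKO minus WT differences, all but that of Tmpo did. In the average over genotypes, differentiated against ES cells, 2 of 9 passed, Satb1 (log2 1.72 ± 0.31, adjusted p = 0.00343) and Lmnb2 (log2 -0.74 ± 0.26, adjusted p = 0.0447), where 35.8% of all genes did (20.1% higher, 15.7% lower), with medians of -0.061 and 0.019. The Lmnb2 call was lost in 8 of the 12 fits that left out 1 library (adjusted p = 0.0699 to 0.11). In that average Lmna had a log2 value of 0.21 (adjusted p = 0.725), with WT and the other genotypes going different ways.

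Between genotypes at the differentiated stage alone, with 1 library a genotype and day, edgeR called 0 of 9 lamina genes in KO against WT, where 0% of 12896 genes were called. At an unadjusted p under 0.05 there were 4 of 9 and 3002 of all genes. DESeq2 called 3 (Lmna, Lmnb2 and Sun2) and 14.2% of all genes, and limma on log2(RPKM + 1) 1 (Lmna) and 1.05%. In DKO against WT edgeR again called 0 of 9, where 2.18% of genes were called (1.52% higher, 0.659% lower), with 6 of 9 and 3970 of all genes at an unadjusted p under 0.05. DESeq2 called 5 (Lmna, Lmnb1, Lmnb2, Lbr and Sun2) and 24.3% of all genes, and limma 1 (Lmna) and 5.54%. The medians were 0.24 and 0.228 over the 9 genes, beside -0.009 and 0.018 over all genes. Lmna had the largest difference in size of the 9 in both, -2.13 ± 0.26 in KO (adjusted p = 0.079) and -1.70 ± 0.26 in DKO (adjusted p = 0.0544). Without WT day 12 the DKO value was -1.96 (adjusted p = 0.0255).

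Day 12 was set against day 8 over the 3 genotypes, and edgeR called 0 of 9, where 0% of all genes were called. At an unadjusted p under 0.05 there were 3 of 9 and 1582 of all genes, and DESeq2 called 2, Lmna and Lbr, and 4.37% of all genes. Lmna was higher at day 12 in each genotype (log2 1.06 ± 0.21, adjusted p = 0.373) and Lbr lower in each (log2 -0.74, DESeq2 value -0.76 with an adjusted p of 0.031). The medians were -0.297 and -0.008.

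Markers of cell types also differed between the genotypes in the differentiated libraries. The 8 pluripotency markers summed to 1141 to 2576 in differentiated KO cells, 1885 to 3835 in differentiated DKO cells and 329 to 375 in differentiated WT cells, and to 3543 to 5436 in ES cells. Of the 8 mesenchyme and smooth muscle markers, Col1a1, Col1a2, Col3a1, Acta2, Lum and Postn passed the filter through differentiated WT and KO libraries alone, so a count of rises is not read for this list. The 8 summed to 200 (day 8) and 927 (day 12) in KO and 23.1 and 158 in DKO, against 1925 and 1313 in WT, and to 55.8 to 119.5 in ES cells. Postn and Lum, which mark fibroblast-like cells, were at 0 or below 0.4 in all ES libraries, in both DKO differentiated libraries and in KO day 8. The other markers of this list were above both KO ES libraries at KO day 8. Col1a1 was at 7.24 there, against 0.2647 and 0.3415 in KO ES cells, and Tagln at 14.91, against 2.405 and 2.105. At KO day 12 Postn was at 29.4 and Lum at 12.6, against 125.5 and 20.6 at day 8 and 48.5 and 31.9 at day 12 in WT. The 6 blood and endothelium markers summed to 180 and 486 at days 8 and 12 in KO and 29.8 and 17.4 in DKO, against 5836 and 90.5 in WT. In ES cells they summed to 58.0 to 64.0 in KO, 31.0 to 31.4 in DKO and 26.5 to 26.7 in WT. The WT day 8 sum was mostly the globins Hba-x (3401) and Hbb-bh1 (2207), which had no reads in DKO. The DKO sums were mostly Pecam1 (29.1 and 11.8), which was at 30.6 and 30.3 in DKO ES cells. Kdr was at 0.279 and 4.59 in DKO, above 0.174 and 0.166 in DKO ES cells. The 6 visceral endoderm markers summed to 52.4 and 576 in KO and 66.4 and 669 in DKO, against 519 and 1310 in WT. The 4 cardiac muscle markers summed to 6.14 and 40.8 in KO and 7.48 and 3.62 in DKO, against 32.3 and 13.8 in WT. The 6 neural markers summed to 86.1 and 66.4 in KO and 105 and 93.8 in DKO, against 26.1 and 28.2 in WT. In ES cells they summed to 238.5 to 291.3 in KO, 176.4 to 201.7 in DKO and 172.7 to 179.0 in WT. The neural sum was thus lower in differentiated than in ES cells of each genotype, but its members did not all go this way. Tubb3 was at 152 and 158 in WT ES cells and at 7.09 and 13.8 at WT days 8 and 12. Sox1 was at 121 and 109 in DKO ES cells and at 25.5 and 25.8 at DKO days 8 and 12. Nes was higher at both days than in ES cells in WT (17.9 and 13.4, against 11.6 and 11.4) and in DKO (8.44 and 14.8, against 5.97 and 6.96). In KO its ranges overlapped. The part of these cell-type differences in the lamina values was not tested.

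In ES cells the marker lists differed too, and their part in the lamina values there was not tested either. Of 8 pluripotency markers 3 rose and 3 fell in KO against WT, and 2 rose and 5 fell in DKO, among them Zfp42 (REX1), which fell by 3.31 (log2) in KO and by 3.05 in DKO. Nanog rose in KO (log2 1.46) and fell in DKO by 1.06, and so did Dppa5a (0.90 in KO, -1.32 in DKO), while Esrrb went the other way (-0.32 in KO, 0.78 in DKO). Visceral endoderm markers summed to 7.57 to 10.4 in KO and 39.1 to 50.9 in DKO, against 5.03 to 5.04 in WT. Most of the DKO sums was Gata4, an endoderm and mesoderm factor, at 37.8 and 29.9. It rose in DKO by 3.72 (log2, SE 0.17). The serum protein genes of the list did not rise with it. Afp was at 0 in the DKO and WT ES libraries. Ttr was at 0.185 and 0.202 in DKO, against 0.240 and 0.368 in WT. Apoa1 was at 0.596 and 0.960 in DKO, against 0.978 and 0.166 in WT. Gata6 and Sox17 passed the filter in ES cells through the DKO libraries alone, so their rise there was built into their being tested. Sox1, a neural progenitor factor, rose in DKO by 4.37 (log2), while Nes fell by 0.82 and Tubb3 fell by 1.22 there.

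Other genes of the nuclear envelope were followed as lists, whose counts stand beside the shares of all genes given above (in KO against WT ES cells 23.5% higher and 19.2% lower, in DKO against WT ES cells 32.2% and 31.7%, and in differentiation 15.8% and 13.5% within KO, 10.4% and 9.24% within DKO and 31.2% and 29.8% within WT). Nothing particular to a list is read from them. Of 14 LEM domain and inner nuclear membrane genes, 2 rose and 4 fell in KO ES cells relative to WT (median log2 0.003), and 7 rose and 2 fell in DKO ES cells (median 0.37). Ankle1, a LEM domain nuclease, rose in KO (log2 1.63 ± 0.15, adjusted p = 3.95e-06) and in DKO (1.14 ± 0.15, adjusted p = 2.5e-05). Lemd3, the inner membrane protein MAN1, rose in DKO (1.07 ± 0.12, adjusted p = 7.17e-06). Tor1aip2, which activates torsin ATPases, fell in KO by 0.80 (SE 0.12, adjusted p = 0.00018) and rose in DKO (0.85 ± 0.12, adjusted p = 5.01e-05), and Nemp2, listed as Tmem194b, fell in KO by 1.73 (SE 0.18, adjusted p = 1.28e-05) and rose in DKO (0.45 ± 0.17, adjusted p = 0.0314). Within differentiation 2 of the 14 rose and 1 fell in KO, none rose and 1 fell in DKO, and 4 rose and 2 fell in WT.

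Of 7 other genes of the bridge to the cytoskeleton, nesprins and further SUN domain genes, 6 were matched and 1 could be tested in ES cells. It was Syne4 (listed as AI428936), a nesprin, which fell in DKO by 0.60 (SE 0.20, adjusted p = 0.019). Spag4, a SUN domain gene, had a deposited RPKM of 0.774 and 1.14 at days 8 and 12 in KO, 0.528 and 0.854 in DKO and 1.78 and 0.913 in WT, and at most 0.385 in any ES library. It passed the filter through WT day 8 and KO day 12 alone, so a rise with differentiation was built into its being tested and no test of it is read. Of 5 enzymes that mature prelamin A and B-type lamins, 2 rose and 1 fell in KO ES cells, and none rose and 2 fell in DKO ES cells. Fntb, the beta subunit of farnesyltransferase, rose in KO (1.38 ± 0.12, adjusted p = 3.4e-06) and fell in DKO by 0.49 (SE 0.12, adjusted p = 0.00372). Its partner subunit Fnta fell in DKO by 0.65 (SE 0.11, adjusted p = 0.000248). Zmpste24, the protease that cuts prelamin A, rose in KO (0.44 ± 0.14, adjusted p = 0.0246), and Rce1, which trims farnesylated proteins, fell there by 0.41 (SE 0.14, adjusted p = 0.0369).

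Of 14 nuclear pore genes, none rose and 6 fell in KO ES cells (median -0.223), and 1 rose and 6 fell in DKO ES cells (median -0.167). In differentiation 6 of 14 fell in KO, none of 14 in DKO and 13 of 14 in WT (medians -0.476, -0.164 and -1.051), and none rose. Nup93, a structural ring subunit, fell within KO by 0.73 (SE 0.14, adjusted p = 0.00882) and within WT by 1.88 (SE 0.15, adjusted p = 4.21e-05). Nup107, of the pore's outer ring, fell in DKO ES cells by 0.93 (SE 0.13, adjusted p = 4.84e-05), and Ndc1 (listed as Tmem48), a membrane anchor of the pore, by 0.91 (SE 0.15, adjusted p = 0.000234). Ahctf1, which seeds new pores on chromatin, fell in KO ES cells by 0.91 (SE 0.15, adjusted p = 0.000341).

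Of 8 genes whose products act with the lamina on peripheral heterochromatin, 3 rose and none fell in KO ES cells, and 4 rose and 3 fell in DKO ES cells. Zbtb7b, a zinc finger repressor, rose in both (log2 1.08 ± 0.13 in KO, 0.90 ± 0.13 in DKO). Hdac3, a histone deacetylase that partners emerin and LAP2 beta, and Cbx3, the HP1 gamma protein, fell in DKO by 0.76 (SE 0.13) and 0.61 (SE 0.12). Of 6 mitotic cycling genes none passed in KO ES cells, 1 rose (Mki67, 0.50 ± 0.17) and 2 fell (Aurkb, -1.11 ± 0.12, and Cdk1, -0.32 ± 0.12) in DKO ES cells, and in differentiation none fell in KO or DKO and 5 of 6 fell in WT, Ccnb1 by 1.35 (SE 0.13). The mitotic genes summed to 322 and 258 at days 8 and 12 in KO and to 301 and 172 in DKO, against 239 and 134 in WT, and lay between 239 and 304 in ES cells. Lamin B1 and LBR are known to be lost when cells stop dividing in senescence, and the part of cycling in the lamina values was not tested.

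Over all 12 libraries the spread of the members, as highest over lowest level, ran from 1.6-fold for Sun1, 1.81-fold for Tmpo and 2.49-fold for Lmnb1, through 3.28-fold for Lbr, 3.58-fold for Lmnb2, 3.84-fold for Emd and 4.98-fold for Sun2, to 9.3-fold for Lmna and 9.99-fold for Satb1. As a description, Pearson correlations of log2(RPKM + 1) over the 12 libraries, which share genotypes and stages, were 0.875 between Lmnb1 and Lmnb2, 0.868 between Lmnb1 and Lbr, 0.781 between Lmna and Sun2, -0.816 between Lmna and Lmnb2 and -0.955 between Lmnb2 and Sun2. Those of Emd with the other genes ran from -0.557 (Tmpo) to 0.334 (Sun1).

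Among 7520 symbols with a mean of at least 5 RPKM, the patterns most like each lamina gene over the 12 libraries were found by the same correlation. Nearest to Lmna were Blcap (0.925), Brp44 (0.92) and Ckap4 (0.917). Nearest to Lmnb1 were E130201H02Rik (0.993), Slc29a1 (0.975) and Gsta4 (0.972), and nearest to Lmnb2 Trap1 (0.985), Jarid2 (0.984) and Polr1b (0.981). Lbr was most like Cdca2 (0.95), Fam60a (0.927) and Zfp532 (0.922). Emd was most like Cdk16 (0.98), Crocc (0.963) and Prickle3 (0.954), and Tmpo like Trak1 (0.922), Ogdhl (0.915) and Pogz (0.898). Sun2 was most like Zfand3 (0.973), Mpzl1 (0.973) and Klc1 (0.97), and Satb1 like Bnip3l (0.968), Sox4 (0.968) and C030046I01Rik (0.942). Sun1 had the lowest best match, with Lpcat1 (0.834), Coro2b (0.822) and Pkmyt1 (0.819). None of these is one of the 9.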

How the data were processed

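Polyadenylated RNA of 12 samples was sequenced (Illumina), per the labels' protocols, and the reads were aligned with Bowtie2 to mm9, per the submitters' processing notes. The counting program and its use of strand are not given in the sources used here. For each of 29257 transcript models the authors deposited whole-number counts of reads, a length and an RPKM, which is the count over that length and over a library total larger than the reads in genes. The longest model stood for each symbol; models of a gene share reads.

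A gene entered a fit if 2 or more of its libraries had 1 RPKM or more, and was tested with edgeR 4.0.16 (quasi-likelihood F test, TMM scaling, Benjamini-Hochberg over all genes tested, threshold 0.05) in R 4.3.3. A standard error is the log2 fold change over the square root of F. ES comparisons used 6 libraries, differentiated comparisons 6 with genotype and day, the average over genotypes all 12 with genotype, and changes within genotypes and their differences all 12 with a mean per genotype and stage and day. DESeq2 1.42.0, limma 3.58.1 on log2(RPKM + 1) and on log2(RPKM + 0.1), RLE scaling, TMM factors without chromosomes 1, 11, 14, X and Y, no filter, the row with most reads, 1 library left out and a replicate block were alternatives. Python 3.11.15, pandas 2.3.3, numpy 2.4.6 and matplotlib 3.10.9 did the rest. The tests were tried on simulated counts.

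The 9 genes and the 12 lists of other genes (91 of 92 matched) were chosen with earlier results of these data known. Every one of the 9 is named; from each list, the up to 4 genes with the smallest adjusted p in KO or DKO against WT ES cells or in differentiated against ES cells; 1 gene this rule names is not reported here. Chromosomes come from a RefSeq table of GRCm38.p6, matched by transcript identifier first and by symbol or synonym after. In all, 99.7% of symbols were given a chromosome. Upstream sequence comes from RefSeq on that build (8 of 9 genes had an entry).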

Additional observations from a re-analysis of the deposited data

Results flagged for a closer look

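The change from ES to differentiated cells differed between genotypes by a test of the difference itself (edgeR, adjusted p under 0.05) for these lamina genes. In KO minus WT the log2 differences were -2.17 for Lmna, -1.65 for Sun2, -0.73 for Emd, 1.80 for Satb1, 0.91 for Lmnb2 and 0.86 for Lbr. In DKO minus WT they were -2.46 for Lmna, -2.60 for Sun2, 1.56 for Lmnb2, 1.34 for Lbr, 1.12 for Lmnb1 and 0.59 for Tmpo. Of the KO minus WT differences only that of Lmna held in every fit with 1 library left out. Of the DKO minus WT differences all but that of Tmpo did. The pluripotency and mesenchyme marker sums of the same differentiated libraries differed as well, and their part in these values was not tested.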

How the results depend on the processing

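Counts of the 9 lamina genes that changed are given with the share of all genes called in the same fit, except where 1 library was left out. Those fits leave 1 library in a group, and the share of all genes called often changed too. Their ranges are not read as results about the lamina genes. In the fit of all 12 libraries with a mean per genotype and stage, 3 (15.1% of all genes) changed in KO against WT ES cells, beside 5 in the 6-library fit. In that fit 5 (59.8%) changed in differentiated against ES cells, beside 2, and 4 (27.5%) in KO against WT differentiated cells, 6 (37.9%) in DKO against WT differentiated cells and 4 (9.45%) in day 12 against day 8, beside 0 in each. For those last 3 comparisons DESeq2 called 3 (14.2%), 5 (24.3%) and 2 (4.37%). At pseudocounts 0.1 and 1 limma called 1 (1.24% and 1.05%) in KO and 1 (7.06% and 5.54%) in DKO against WT differentiated cells, and edgeR without a filter called 1 (2.05%) in DKO against WT. With 1 library left out the counts ranged from 2 to 6 in KO against WT ES cells (2 without either WT ES library), 4 to 7 in DKO against WT (4 without either WT ES library, where Satb1 no longer passed the filter), 4 to 6 in DKO against KO, 1 to 4 in differentiated against ES cells, 1 to 5 within KO, 0 to 3 within DKO, 6 to 7 within WT, 1 to 6 in the KO difference of change, 5 to 6 in the DKO difference and 0 to 1 in DKO against WT differentiated cells. The replicate numbers do not pair the ES libraries (correlations of deviations -0.055 to -0.03). With the replicate number as a block, 4 (39.8%) changed in KO against WT ES cells, where Tmpo was lost. In DKO against WT ES cells 6 (61.7%) changed, where Lmnb1 was lost, and in DKO against KO ES cells 6 (65.3%).

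Of 1812 values of single genes under alternatives, 44 changed sign, all where neither value passed. Among the lamins these were Lmna in KO against WT ES cells (-0.007 and -0.006 with limma at pseudocounts 0.1 and 1, -0.001 without a filter, -0.076 to 0.17 with a library left out), Lmna in differentiated against ES cells (-0.103 to 0.413 with a library left out), Lmnb2 within DKO (0.046 and 0.045 with limma, -0.21 to 0.132 with a library left out), Lmnb1 within DKO (-0.027 to 0.169 with a library left out) and Lmnb2 in KO against WT ES cells (-0.078 to 0.015 with a library left out). The cause was not tested. Satb1, with 70 to 766 reads a library, is the gene whose precision depth limits most.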
